A study of Mus musculus with 12 samples.

Results

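The 29 genes described here make up the cholesterol pathway of the mouse hepatocyte, from the joining of acetyl-CoA to the export and storage of the finished sterol. They were chosen by symbol from 55450 gene identifiers, and each symbol had a single identifier. The set held 8 mevalonate and isoprenoid enzymes, 11 squalene and sterol enzymes, 4 genes of sterol sensing and 6 genes of transport, export and esterification. RNA-Seq was performed on 12 libraries of primary mouse hepatocytes in 4 groups of 3. KO cells carried the genotype written Cebpa{delta}Alb, in which floxed Cebpa was deleted by Cre under the albumin promoter, and WT cells carried the same floxed alleles (Cebpafl/fl) without that deletion. OE cells received an adenovirus expressing mouse Cebpa (Ad-m-Cebpa) and GFP cells received the control adenovirus Ad-GFP. Neither the duration of exposure nor the age of the mice is given in the labels, and the genotype of the OE and GFP cells is given only as the virus. Libraries are numbered as biological replicates, but no source says whether they came from separate mice, so p values may measure only the spread between preparations. CEBPA (CCAAT/enhancer binding protein α) is a transcription factor of the mature hepatocyte, and the comparisons asked how its loss or its excess changed gene expression.

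Cholesterol is built from acetyl-CoA through mevalonate, farnesyl diphosphate, squalene and lanosterol. When membrane sterol is low, SCAP carries the precursor of the transcription factor SREBP2 out of the endoplasmic reticulum, SREBP2 is cleaved, and the genes of synthesis are transcribed together. When sterol is plentiful, INSIG proteins hold SCAP back, excess sterol is esterified or exported, and in the liver it also leaves as bile sterol or bile acid.

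The targeted gene was examined first. Cebpa had 0.963, 0.257 and 0.164 CPM (counts scaled to 1000000 per library, with TMM factors) in KO, against 309, 229 and 290 CPM in WT. It had 13293, 13652 and 14079 CPM in OE, against 48.0, 50.6 and 54.3 CPM in GFP. The libraries thus sat on the side their labels give. Total counts were 20368564 to 23304230 in KO, 20966339 to 23261800 in WT, 20160081 to 23193817 in OE and 20467466 to 22132226 in GFP. Hepatocyte markers (9 genes, among them Alb and Apoa1) summed to 126027 to 159315 CPM in KO, 117459 to 122918 CPM in WT, 13026 to 13818 CPM in OE and 33523 to 34796 CPM in GFP. All 9 were called in OE against GFP, 2 higher and 7 lower. Of all 14889 genes tested there, 86.6% were called, 43.9% higher and 42.7% lower. Cholangiocyte markers (8 genes) summed to 376 to 522 CPM in KO, 29.9 to 38.7 CPM in WT, 59.5 to 65.9 CPM in OE and 272 to 299 CPM in GFP. Most of that was Spp1 in KO (a mean of 379 CPM) and Cldn4 in GFP (175 CPM). Sox9 averaged 36.2 CPM in KO and 8.93 CPM in WT. Spp1 and Sox9 were called higher in KO, 2 of the 3 tested, beside 0.692% of all genes. In OE all 8 were tested, with 3 called higher and 4 lower, beside 43.9% and 42.7% of all genes. Krt7 averaged under 1 CPM in every group, but Krt19 averaged 3.14 CPM in GFP and Epcam 4.24 CPM in OE. Markers of endothelial cells (10 genes) summed to 15.97 to 38.8 CPM in KO, 14.5 to 25.5 CPM in WT, 37.4 to 39.9 CPM in OE and 52.5 to 56.0 CPM in GFP. Those of stellate cells and fibroblasts (10 genes) summed to 14.4 to 21.8 CPM in KO and 4.90 to 10.4 CPM in WT. In OE they summed to 40.6 to 41.5 CPM and in GFP to 9.09 to 11.1 CPM. Each comparison tested 4 of them, not the same 4. Of these 1 was called higher in KO and 3 in OE, while 0.692% and 43.9% of all genes were called higher. Most of the sums was Reln, with means of 13.8 CPM in KO, 4.37 in WT, 29.5 in OE and 6.10 in GFP. Des, Pdgfrb and Col1a2 averaged under 1 CPM in every group. The part of these cell types in the values below was not tested. In such bulk samples fewer cells of a type and less RNA per cell cannot be told apart.

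In KO 1 member was called and in OE most were, but most of all genes were also called in OE, and few in KO. Calls in OE included rises and falls in the same enzyme chain. The numbers called cannot be compared between the experiments, whose biological coefficients of variation were 20.4% (KO and WT) and 4.04% (OE and GFP). In KO against WT, no member was called higher and 1 was called lower, Abcg8, at an adjusted p under 0.05 (edgeR quasi-likelihood test, Benjamini-Hochberg adjustment over all genes tested). Of all 11846 genes tested, 0.692% were called higher and 1.02% lower, 1.71% in all, so 1 member of 29 says little about the set. An unadjusted p under 0.05 was reached by 4 of the 29 members, all of them lower, beside 1644 of the 11846 genes. DESeq2 called 0 members higher and 4 lower, beside 276 and 347 of all genes. The median log2 fold change of the members was -0.06, beside 0.01 over all genes tested. In OE against GFP, 17 members were called higher and 7 lower, or 82.8%, and 5 were not called, while 86.6% of 14889 genes were called, 43.9% higher and 42.7% lower. The share of members that changed was thus close to the background, with a median log2 fold change of 0.26 beside 0.01 over all genes. That median was 0.12 without OE2 and 0.41 without OE3. The split between higher and lower depended on the scale. With limma on log2(TPM + 1), where the median of all genes moved to 0.27, 22 members were called higher and 5 lower, and 63.4% of all calls were higher in place of 50.7%. Both comparisons tested all 29 members.

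**Figure D1:**
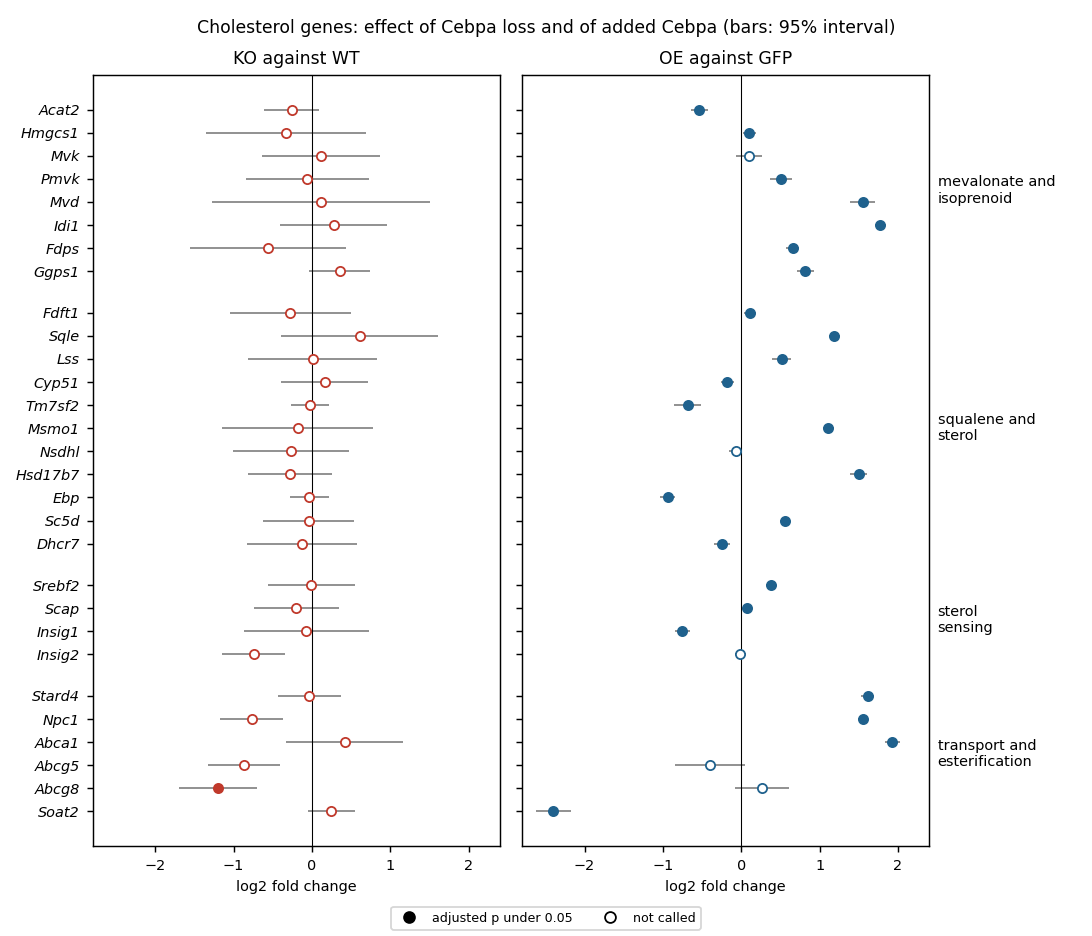
Log2 fold change of each of the 29 members, KO against WT on the left and OE against GFP on the right, with bars for the 95% interval and filled points for an adjusted p under 0.05 by the edgeR quasi-likelihood test. On the left only Abcg8 is filled and the intervals of the synthesis enzymes are wide. On the right the intervals are narrow, and the points lie between -2.40 for Soat2 and 1.93 for Abca1. On a TPM scale the points of Cyp51, Nsdhl and Insig2 on the right would lie above 0.

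The largest difference in KO was in the exporters of sterol into bile. Abcg8 and Abcg5 are the paired subunits that together move cholesterol and plant sterols across the canalicular membrane, and their genes lie head to head on chromosome 17. Abcg8 (ENSMUSG00000024254.15, mm10 chromosome 17, 84676302 to 84700333, plus strand) had 14.4, 12.5 and 17.5 CPM in KO, against 31.2, 26.9 and 43.9 CPM in WT. Every KO library lay below every WT library. Abcg8 fell by 1.198 on the log2 scale (SE 0.21, n = 3 in each group, adjusted p = 0.0438 by edgeR). Of all genes tested, 0.794% were called lower and 0.566% higher by more than 2-fold. That call was narrow. It was lost without any 1 of 5 libraries, with adjusted p values by edgeR of 0.121 without KO1, 0.135 without KO2, 0.144 without WT1, 0.0758 without WT2 and 0.0986 without WT3. It was also lost with a stricter filter (0.0638) and with limma on TPM (0.0901 and 0.0884). Abcg5 (minus strand, 84658234 to 84683011) had 17.4, 14.3 and 14.3 CPM in KO, against 26.9, 21.4 and 35.6 CPM in WT. Its groups did not overlap either, but its log2 fold change of -0.87 ± 0.20 was not called (adjusted p = 0.0982 by edgeR). The exons of the pair share 82 bases on opposite strands. The library kit marks strand, but the strand setting of the counting is not given in the sources used here.

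Npc1 and Insig2 were the other members whose KO libraries all lay below the WT libraries. Npc1, which lets cholesterol from endocytosed lipoproteins leave the late endosome and lysosome, had 62.7, 43.6 and 54.1 CPM in KO, against 84.6, 108 and 81.0 CPM in WT. Its log2 fold change was -0.77 ± 0.17 (adjusted p = 0.0937 by edgeR). Insig2, an anchor of SCAP in the endoplasmic reticulum (chromosome 1, 121304353 to 121332589, minus strand), had 65.5, 102 and 76.0 CPM in KO, against 146, 127 and 135 CPM in WT. The log2 fold change of Insig2 was -0.74 ± 0.17 (adjusted p = 0.101 by edgeR). Npc1, Insig2 and Abcg5 were thus short of the threshold in the main test. The 3 genes were called lower with DESeq2, with no filter on low counts and when all 12 libraries were fitted at once, and Insig2 also without KO2 (adjusted p = 0.0406 by edgeR). With Ggps1, which did not overlap in the other direction, 1 member was higher and 4 were lower without overlap, against 9.66% and 10.4% of all genes tested (20% in either direction).

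The remaining members of the sensing and transport lists showed no difference beyond the spread in KO. Abca1, which loads cholesterol onto apolipoprotein A-I (chromosome 4, 53030787 to 53159895, minus strand), had 275, 401 and 149 CPM in KO, against 196, 217 and 204 CPM in WT. The KO libraries lay on both sides of the WT libraries, and the 95% interval of its log2 fold change was -0.33 to 1.17 (adjusted p = 0.591 by edgeR). The KO libraries with the most Abca1 also had the most macrophage RNA: 12 macrophage markers summed to 40.8, 47.8 and 14.0 CPM in KO, against 3.71, 6.32 and 23.2 CPM in WT. None of the 12 was at 0 in all of these libraries. None of the 10 tested was called, beside 1.71% of all genes, and the part of these markers' cells in the Abca1 values was not tested. Srebf2, the gene of SREBP2 (chromosome 15, 82147181 to 82205379, plus strand), had 99.7, 67.5 and 53.8 CPM in KO, against 87.2, 64.7 and 70.0 CPM in WT. Its interval, -0.56 to 0.54, leaves room for a change of that size in either direction. Insig1, the other SCAP anchor and a target of SREBP2 (chromosome 5, 28071363 to 28078662, plus strand), had 400, 310 and 262 CPM in KO, against 526, 288 and 208 CPM in WT. Both groups spanned a wide range, with an interval of -0.87 to 0.73. Scap, Stard4 and Soat2 also overlapped between the groups, with log2 fold changes of -0.20, -0.03 and 0.25.

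None of the 19 synthesis enzymes was called in KO against WT by edgeR, none had an unadjusted p under 0.05, and DESeq2 called 0 of them. Of all 11846 genes tested, edgeR called 1.71%, 1644 had an unadjusted p under 0.05, and DESeq2 called 623. The absence of calls among 19 genes thus says little about the enzymes. Values of the enzymes varied widely between the libraries of each group. Hmgcs1, which makes HMG-CoA, had 153, 153 and 96.6 CPM in KO, against 287, 136 and 82.2 CPM in WT. Fdps, which makes farnesyl diphosphate, had 97.5, 107 and 61.9 CPM in KO, against 198, 138 and 57.9 CPM in WT. Msmo1, a methyl sterol oxidase, had 131, 90.7 and 69.2 CPM in KO, against 168, 109 and 53.4 CPM in WT. In each case WT1 was the highest and WT3 the lowest of the 3 WT libraries. The same order held for 15 of the 19 enzymes, or 78.9%, against 17.9% of all genes tested that had a count in every WT library. The highest WT library exceeded the lowest by more than 2-fold for 12 of the 19, or 63.2%, against 8.92% of all such genes. The widest ratio was 4.60 for Mvd, followed by 3.49 for Hmgcs1 and 3.42 for Fdps. Insig1 showed the same order with a ratio of 2.52, whereas the ratios of Insig2 (1.15), Soat2 (1.04) and Abca1 (1.11) were small. The median coefficient of variation of the enzymes in WT was 38.5%, beside 10.3% for all genes.

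Among the enzymes, Ebp, Ggps1 and Tm7sf2 varied least in WT. Ebp, a sterol isomerase, had 179, 153 and 155 CPM in KO, against 166, 172 and 161 CPM in WT, and its interval was -0.28 to 0.21. Tm7sf2, a sterol reductase, had 90.8, 87.3 and 79.9 CPM in KO, against 79.2, 92.9 and 90.2 CPM in WT, with an interval of -0.27 to 0.22. The intervals of Ebp and Tm7sf2 were thus narrow. Ggps1 had 7.36, 10.6 and 8.09 CPM in KO, against 6.32, 7.18 and 6.89 CPM in WT, with an interval of -0.04 to 0.74. KO3 was the lowest KO library for 16 of the 19 enzymes, against 4150 of 11786 genes with a count in every KO library. KO1 was the highest and KO3 the lowest for 10 of the 19, or 52.6%, against 15.2% of such genes. The median coefficient of variation of the enzymes in KO was 17.0% beside 14.6% for all genes. The members' median depended on single libraries: it was -0.06 with all 6, 0.13 without WT1, 0.01 without KO3, -0.09 without WT2, -0.11 without KO2, -0.15 without KO1 and -0.29 without WT3. WT3, the WT library lowest in most enzymes, had the highest macrophage marker sum of its group, whereas KO3, lowest in most enzymes among the KO libraries, had the lowest of its group, and the part of such cells was not tested. In OE and GFP the enzymes were tight, with median coefficients of variation of 2.75% and 4.13%.

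**Figure D2:**
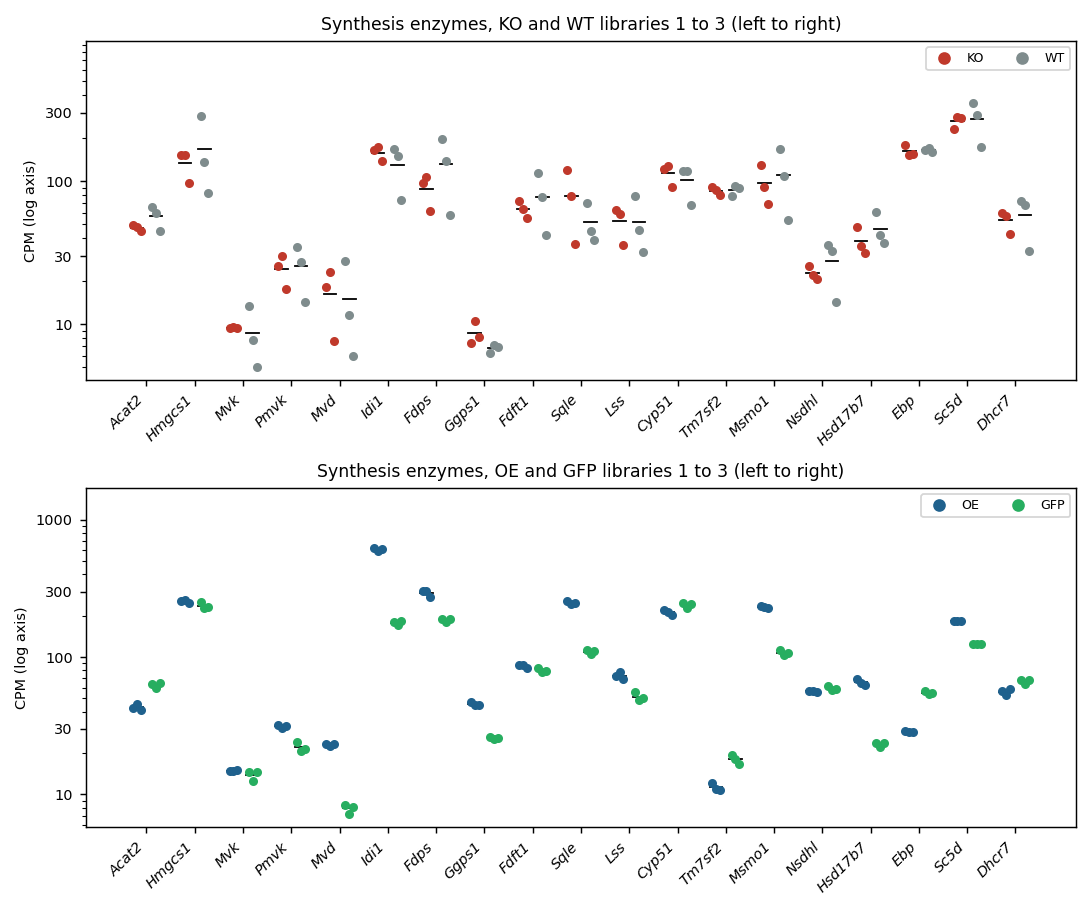
CPM of the 19 synthesis enzymes on a log axis, 1 point per library in the order 1 to 3 from left to right and a black line at the group mean, for KO and WT above and for OE and GFP below. In WT the points step down to WT3 for most enzymes but not for Tm7sf2 or Ggps1. In OE and GFP the 3 points of a group nearly coincide.

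**Figure D3:**
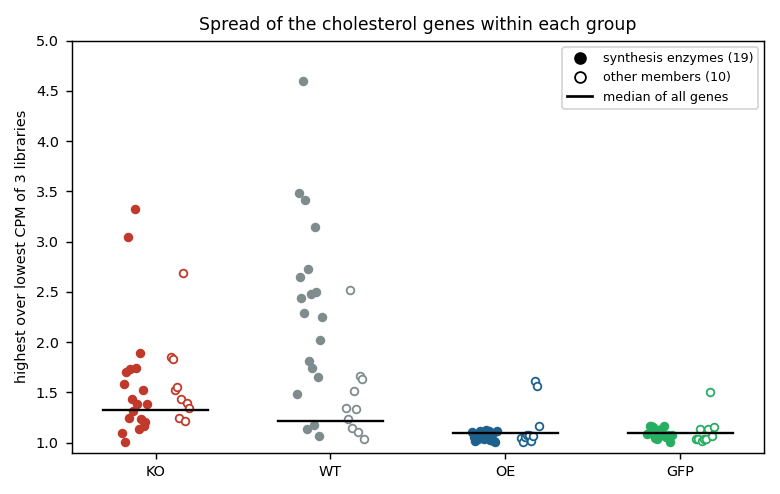
Ratio of the highest to the lowest CPM among the 3 libraries of each group, for each synthesis enzyme (filled) and each other member (open), with a black line at the median of all genes. The enzymes reach 4.60 in WT, while in OE and GFP no member passes a ratio of 2.

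Promoter sequence shared by the members was examined in RefSeq windows of GRCm38.p6 that cover the 250 bases before each transcription start. There were 30 such windows for 23 of the 29 members. The box of the factor NF-Y, CCAAT on either strand, was found for 19 of these 23 genes, or 82.6%, against 37.5% of all 27025 genes in the table and 41.1% of the genes tested in KO against WT. NF-Y is known to act beside SREBP2 at sterol-regulated promoters. A sterol regulatory element, TCACNCCAC on either strand, was found for 1 member, Hmgcs1, and for 1.22% of all genes. The letters TTGCNNAA, as found in many C/EBP sites, were present on either strand for Dhcr7 and Nsdhl, or 8.70% of members, against 10.8% of all genes. In Nsdhl they overlap a CCAAT box. These are matches of letters, not sites known to be occupied. The windows below show Hmgcs1 for its sterol element, Nsdhl for the C/EBP letters, and CCAAT boxes of members that moved in opposite directions in OE (Idi1, Mvd and Hsd17b7 higher, Insig1 and Ebp lower). Capitals mark the match, and each run is given 5′ to 3′ on the strand of its gene, where ATTGG is CCAAT on the other strand. In Nsdhl the capitals TTGGGCAA likewise read TTGCCCAA on the other strand, which matches TTGCNNAA. They lie at chr13:119690204-119690233 (plus strand), chrX:72918491-72918520 (plus strand), chr13:8885549-8885578 (plus strand), chr8:122443432-122443461 (minus strand), chr1:169969261-169969290 (minus strand), chr5:28071184-28071213 (plus strand) and chrX:8193550-8193579 (minus strand), in the order listed.
Hmgcs1: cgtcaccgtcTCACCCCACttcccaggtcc
Nsdhl: gactagcctcaTTGGGCAAaatcatgctgt
Idi1: tgcctccagctgATTGGcgagcccgggcat
Mvd: ccggccagcgggCCAATcatatggcagcgc
Hsd17b7: tgccgagtcgcgATTGGcgggcctaacgcg
Insig1: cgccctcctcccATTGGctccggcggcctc
Ebp: atccctgtactgATTGGttcgtcagattcg

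In OE against GFP, 6 of the 8 mevalonate and isoprenoid enzymes rose and 1 fell, with a median log2 fold change of 0.58, while 43.9% of all genes rose and 42.7% fell. Idi1, which isomerizes isopentenyl diphosphate (chromosome 13, 8885501 to 8892451, plus strand), had 620, 594 and 614 CPM in OE, against 180, 170 and 184 CPM in GFP. Its log2 fold change was 1.78 ± 0.03 (adjusted p = 3.01e-15 by edgeR), the largest of any enzyme of synthesis. Mvd, the mevalonate diphosphate decarboxylase (chromosome 8, 122433601 to 122443422, minus strand), had 23.2, 22.7 and 23.5 CPM in OE, against 8.35, 7.24 and 8.16 CPM in GFP. Mvd rose by 1.55 ± 0.07 on the log2 scale (adjusted p = 5.25e-11 by edgeR). Smaller rises were seen for Ggps1, which makes geranylgeranyl diphosphate (0.82 ± 0.05), for Fdps (0.66 ± 0.04) and for the phosphomevalonate kinase Pmvk (0.51 ± 0.06). When all 12 libraries were fitted at once, Fdps and Pmvk were not called (adjusted p = 0.085 and 0.0902 by edgeR). Hmgcs1, at the head of the chain, differed by only 0.10 ± 0.04 (adjusted p = 0.0166 by edgeR), its groups overlapped, and its call was lost without GFP2 (0.121), without GFP3 (0.0772) or with all 12 libraries fitted at once (0.775). Acat2, the thiolase that supplies acetoacetyl-CoA, fell by 0.54 on the log2 scale. Mvk, the mevalonate kinase, was not called. The change along the mevalonate chain was therefore uneven, from a fall at Acat2 to a rise of 3.42-fold at Idi1. Some of the reads of Acat2, Idi1 and Fdps were divided among genes by the estimation, with part counts in 11, 12 and 11 libraries. Part counts also occurred for Fdft1 (8 libraries), Tm7sf2 (5) and Ggps1 (4), and the values of all 6 genes carry that uncertainty.

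Of the 11 squalene and sterol enzymes, 6 rose, 4 fell and 1 was not called in OE, again beside 43.9% and 42.7% of all genes. Hsd17b7, a ketosteroid reductase of sterol demethylation, had 69.1, 64.4 and 63.2 CPM in OE, against 23.7, 22.2 and 23.8 CPM in GFP, a log2 fold change of 1.50 ± 0.05. Sqle, the squalene epoxidase, had 255, 245 and 247 CPM in OE, against 112, 105 and 111 CPM in GFP, a log2 fold change of 1.19 ± 0.03. Msmo1 had 235, 232 and 230 CPM in OE, against 112, 103 and 108 CPM in GFP, a log2 fold change of 1.11 ± 0.03. These 3 enzymes rose more than 2-fold and their groups were far apart. The desaturase Sc5d (0.55 ± 0.03) and the lanosterol synthase Lss (0.51 ± 0.05) rose less, and Lss was not called when all 12 libraries were fitted at once (adjusted p = 0.101 by edgeR). Fdft1, the squalene synthase, differed by 0.11 ± 0.04, and its call was lost without GFP2 (adjusted p = 0.0818 by edgeR), without GFP3 (0.052) or with all 12 libraries fitted at once (0.682). Fdft1 shares 18.3% of its exon bases with Ctsb on the opposite strand, which had 304 TPM in OE and 519 TPM in GFP, and with the strand setting unknown reads of the pair may not be separated.

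The 4 falling sterol enzymes act after lanosterol, as do Hsd17b7, Msmo1 and Sc5d, which rose. Ebp had 28.97, 28.7 and 28.4 CPM in OE, against 56.4, 53.7 and 54.9 CPM in GFP, and fell by 0.94 on the log2 scale (adjusted p = 5.52e-11 by edgeR). Tm7sf2 had 12.1, 10.9 and 10.9 CPM in OE, against 19.5, 18.2 and 16.7 CPM in GFP, and fell by 0.68. Both fell in every OE library relative to every GFP library. Dhcr7, the reductase that yields cholesterol in 1 branch, fell by 0.25, but on log2(TPM + 1) its difference was -0.06 and not called. Cyp51, the lanosterol demethylase, differed by -0.18 ± 0.04, which became -0.04 and uncalled with library totals and was called higher (0.15) on log2(TPM + 1). Nsdhl, a dehydrogenase of sterol demethylation, was not called (-0.07 ± 0.04), and on log2(TPM + 1) it was called higher (0.25). Both of those values lie under 0.27, the median of all genes on that scale. The directions of Ebp and Tm7sf2 did not turn under any alternative tried. Tm7sf2 shares 12.1% of its exon bases with Vps51 on the same strand.

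In the sterol-sensing list, Srebf2 and Scap were called higher, Insig1 lower and Insig2 not called in OE. Srebf2 had 148, 149 and 143 CPM in OE, against 111, 115 and 113 CPM in GFP, a log2 fold change of 0.38 ± 0.03 (adjusted p = 1.65e-08 by edgeR, but 0.0669 when all 12 libraries were fitted at once). Insig1 had 71.8, 74.2 and 70.0 CPM in OE, against 131, 118 and 116 CPM in GFP, and fell by 0.76 on the log2 scale (adjusted p = 7.29e-10 by edgeR). Insig1 is a known target of SREBP2. It fell, while calls among the synthesis enzymes went both ways. They were 6 higher and 1 lower in the mevalonate and isoprenoid list, and 6 higher and 4 lower in the squalene and sterol list. Of all genes, 43.9% were called higher and 42.7% lower. Insig2 had 166, 160 and 154 CPM in OE, against 163, 160 and 162 CPM in GFP, with an interval of -0.08 to 0.05. With library totals the value was 0.13, under the median of all genes on that scale, 0.145. On log2(TPM + 1), where length enters, Insig2 was called higher by 0.65 (median of all genes 0.27), with 245 ± 5.69 TPM in OE and 157 ± 11.3 TPM in GFP (SD, n = 3 each). Scap differed by 0.08 ± 0.03, a call lost without GFP1 (adjusted p = 0.156 by edgeR), without GFP2 (0.0517) or with all 12 libraries fitted at once (0.681).

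The transport and esterification genes held the largest rise and the largest fall among the members. Abca1 had 406, 435 and 422 CPM in OE, against 109, 105 and 119 CPM in GFP, a log2 fold change of 1.93 ± 0.04 (adjusted p = 1.22e-14 by edgeR). Stard4, a soluble carrier of sterol between membranes, had 140, 140 and 150 CPM in OE, against 47.8, 46.0 and 46.8 CPM in GFP, a log2 fold change of 1.61 ± 0.04 (adjusted p = 1.8e-14 by edgeR). Npc1 had 417, 425 and 417 CPM in OE, against 142, 141 and 146 CPM in GFP, a log2 fold change of 1.55 ± 0.03 (adjusted p = 1.8e-15 by edgeR). Each of these 3 genes was about 3-fold to 4-fold higher in OE, at 3.81-fold for Abca1, 3.06-fold for Stard4 and 2.93-fold for Npc1. Soat2, which esterifies cholesterol in hepatocytes (chromosome 15, 102150526 to 102163469, plus strand), had 3.55, 3.46 and 3.05 CPM in OE, against 18.7, 16.2 and 18.5 CPM in GFP. Soat2 was 5.28-fold lower in OE, a log2 fold change of -2.40 ± 0.10 (adjusted p = 1.5e-11 by edgeR). These 4 genes kept their direction and their call under every alternative tried.

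The bile exporters were scarce in both virus-treated groups. Abcg5 had 2.97, 1.98 and 3.20 CPM in OE, against 4.37, 2.91 and 3.49 CPM in GFP, and was not called (-0.40 ± 0.21, adjusted p = 0.0826 by edgeR). Abcg8 had 5.24, 6.33 and 4.04 CPM in OE, against 4.22, 4.51 and 4.31 CPM in GFP, and was not called either (0.26 ± 0.16, adjusted p = 0.138 by edgeR). Both pairs of groups overlapped. With log2(TPM + 1) Abcg8 was called higher (0.47), as it was with library totals (0.40) and without OE3 (0.42), where the medians of all genes were 0.27, 0.145 and 0.01, while Abcg5 was called lower with no filter (-0.39), without GFP2 (-0.54) and with the replicate number as a block (-0.41, adjusted p = 0.0474 by edgeR). Their level in KO and WT was higher, at 12.5 to 43.9 CPM for Abcg8, but those cells belong to a separate experiment.

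**Figure D4:**
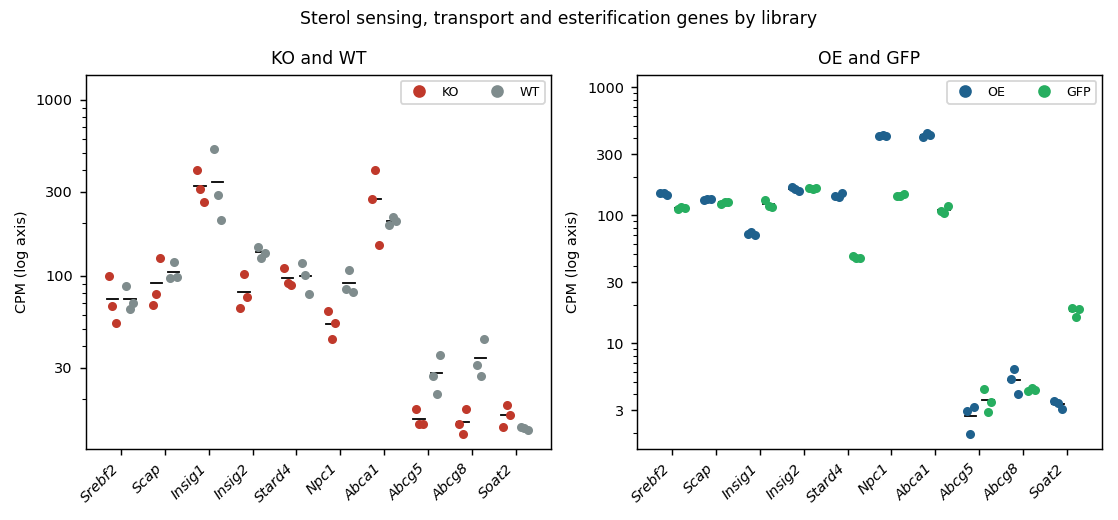
CPM of the 10 sensing, transport and esterification genes on a log axis, 1 point per library and a black line at the group mean, KO and WT on the left and OE and GFP on the right. On the left Insig2, Npc1, Abcg5 and Abcg8 lie below WT in every KO library, of which only Abcg8 was called. On the right Stard4, Npc1 and Abca1 lie far above GFP and Soat2 far below it.

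More than 2-fold changes were called for 9 members in OE, 8 higher and 1 lower, or 31.03% of members beside 42.0% of all genes tested. All genes over 2-fold divided into 23.5% higher and 18.5% lower. In OE 17 members were higher and 8 lower without overlap between the groups, beside 44.1% and 42.9% of all genes (87% in either direction). The 2 comparisons share no library. No member was called in both: 17 were called higher and 7 lower in OE alone, Abcg8 lower in KO alone, and 4 in neither (Mvk, Nsdhl, Insig2 and Abcg5). Of all genes tested, 1.71% were called in KO and 86.6% in OE, and the share called in both was not computed. With so few calls in KO, the lack of a member called in both says little about the set. A call in 1 comparison only does not show that the effects differ, since the biological coefficient of variation was 20.4% in KO and WT and 4.04% in OE and GFP. The difference of the effects was therefore tested itself, as OE against GFP less KO against WT, in 1 fit of all libraries. It was called for 13 members, 10 higher and 3 lower, while 54.1% of all 15326 genes were called, 25.9% higher and 28.1% lower. Npc1 had the largest positive difference, 2.34 ± 0.19, with -0.77 in KO and 1.55 in OE. Soat2 had the largest negative one, -2.62 ± 0.16, with 0.25 in KO and -2.40 in OE.

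Other genes of cholesterol handling, 32 in all, were examined beside the members. In KO 29 of them were tested, of which edgeR called none higher and 1 lower, against 0.692% and 1.02% of all genes. An unadjusted p under 0.05 was reached by 5 of the 29, beside 1644 of all 11846 genes tested. DESeq2 called 0 higher and 2 lower, beside 276 and 347 of all genes. The gene called lower by edgeR was Gramd1c, a carrier of sterol from the plasma membrane to the endoplasmic reticulum. It had 3.08, 3.08 and 3.04 CPM in KO, against 16.9, 13.2 and 14.7 CPM in WT (log2 fold change -2.28 ± 0.14, adjusted p = 0.000932 by edgeR). Next by p value were Cyp27a1, the mitochondrial sterol hydroxylase (-0.79, adjusted p = 0.0715), Mbtps2, a protease that cleaves SREBP2 (0.41, 0.221), and Stard5, a sterol-binding protein (-0.45, 0.285), none of them called by edgeR. In OE all 32 were tested, and 19 rose and 9 fell, or 87.5% called, close to the 86.6% of all genes. Among those that fell were Lrp1, a lipoprotein receptor (5.17-fold lower), and Lcat, which esterifies cholesterol in plasma (log2 fold change -1.14), both named after their values were seen. Stard5 had 405, 399 and 401 CPM in OE, against 41.5, 39.7 and 38.7 CPM in GFP, a log2 fold change of 3.33 ± 0.03. Soat1, the second cholesterol acyltransferase, had 28.1, 25.1 and 26.2 CPM in OE, against 0.248, 0 and 0.154 CPM in GFP. Soat1 therefore rose where Soat2 fell, and its fitted log2 fold change of 7.59 ± 0.22 rests on very few GFP counts. Macrophages also express Soat1, and in these libraries the macrophage gene Cd68 averaged 110 CPM in OE and 131 CPM in GFP, while Csf1r averaged 1.19 CPM in OE and 0.297 CPM in GFP and was called higher. The 12 macrophage markers summed to 106 to 119 CPM in OE and 125 to 139 CPM in GFP, only Cd68 and Csf1r were abundant enough to test, and Adgre1, Clec4f, Marco and Timd4 averaged under 1 CPM in OE and were at 0 CPM in all GFP libraries. The part of other cells in the Soat1 values was not tested. Osbp, a sterol carrier between membranes (1.28), and Cyp27a1 (1.10) also rose in OE.

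Levels were compared between genes only in TPM, which divides by effective gene length. The most abundant members were Insig1 (191 ± 37.1 TPM), Ebp (152 ± 11.4 TPM) and Sc5d (130 ± 8.73 TPM) in KO. In WT they were Insig1 (215 ± 107 TPM), Fdps (166 ± 89.1 TPM) and Ebp (164 ± 2.81 TPM), an order within the spread of the libraries. In OE Fdps (500 ± 23.4 TPM), Idi1 (413 ± 9.35 TPM) and Msmo1 (260 ± 2.67 TPM) led, and the SDs of these 3 did not meet. In GFP Fdps (255 ± 6.61 TPM), Insig2 (157 ± 11.3 TPM) and Hmgcs1 (116 ± 3.99 TPM) led. The least abundant were Ggps1 in KO and WT (5.23 and 3.95 TPM), Abcg5 in OE (2.30 TPM) and Abcg8 in GFP (2.28 TPM). The TPM of all 29 members summed to 1418 ± 153 in KO and 1640 ± 448 in WT (SD, n = 3 each), a difference within the spread. In OE it summed to 3096 ± 11.2 and in GFP to 1611 ± 41.6 (SD, n = 3 each). On log2(TPM + 1) the median log2 fold change of all genes in OE against GFP was 0.27, beside 0.01 in the main test. The part of that shift in the sums was not tested.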

How the data were processed

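Poly(A) RNA was prepared with a column kit and a stranded TruSeq kit. Per the submitters' processing notes, the authors used Trimmomatic 0.36, STAR 2.5.1, RSEM 1.2.22 and the mm10 build, and Picard 1.84 and DESeq2 without a stated role. The deposited expected counts are RSEM estimates per gene, not scaled for depth, and the deposited TPM values are scaled for effective length. Identifiers were matched to GENCODE M21. Members, lists and tests were chosen with earlier results of these data known.

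Expected counts were rounded, filtered (filterByExpr, minimum count 10, minimum total 15), scaled by TMM and tested with edgeR 4.0.16 (quasi-likelihood, 2-sided, R 4.3.3) on the 6 libraries of each comparison, with Benjamini-Hochberg adjustment over all genes and calls at an adjusted p under 0.05. The difference of effects used all 12 libraries. Precision was limited by 20160081 to 23304230 counts per library, and by 3 libraries per group. All 29 members were described. Full values are given for members called in KO, the 6 largest called changes in OE, Srebf2, Insig1, Insig2 and Abca1. The 4 other pathway genes of lowest p per comparison are named, with full values only for Gramd1c in KO and for Stard5 and Soat1 in OE. Values of further members illustrate spread or overlap and were chosen after they were seen.

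Alternatives were DESeq2 1.42.0, other size factors, other filters, limma 3.58.1 on log2 TPM with a pseudocount of 1 or 0.1 (mean TPM at least 1), all 12 libraries fitted at once, the replicate number as a block, and each library left out in turn. The code was tested on simulated data.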

Additional observations from a re-analysis of the deposited data

Results flagged for a closer look

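The effects of added Cebpa (OE against GFP) and of its loss (KO against WT) differed for 13 members by the edgeR quasi-likelihood test of the difference in 1 fit of all 12 libraries, with Benjamini-Hochberg adjustment. Over all genes 54.1% were called in the same test, so the number of members does not stand out. The difference, OE effect less KO effect, was 1.53 for Idi1, 1.25 for Fdps, 0.49 for Ggps1, 1.32 for Msmo1 and 1.80 for Hsd17b7 among the enzymes that were higher, and -0.63 for Tm7sf2 and -0.88 for Ebp among those that were lower. It was 0.76 for Insig2 in sterol sensing. In transport and esterification it was 1.67 for Stard4, 2.34 for Npc1, 1.54 for Abca1, 1.48 for Abcg8 and -2.62 for Soat2. Insig2 and Abcg8 differed although neither was called in OE, with log2 fold changes of -0.74 and -1.198 in KO and -0.01 and 0.26 in OE. Each gene had a single dispersion in this fit although the spread of the experiments differed, with a biological coefficient of variation of 20.4% in KO and WT and 4.04% in OE and GFP. Fdps (adjusted p = 0.0394) was no longer called without any 1 of 10 libraries, Msmo1 (0.0279) without any 1 of 9 and Ggps1 (0.0174) without OE1, OE2, OE3 or GFP1.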

How the results depend on the processing

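In KO against WT, the number of members called lower was 1 in the main test, 4 with DESeq2, 4 with no filter, 4 in the fit of all 12 libraries, 0 with the stricter filter, 0 with limma on log2(TPM + 1), 0 with limma on log2(TPM + 0.1) and 0 to 1 with a library left out, while the number called higher was 0 throughout. Over all genes 203 were called, against 623 with DESeq2, 324 with no filter, 1205 in the fit of all 12 libraries, 91 with the stricter filter, 112 and 103 with limma, 87 with the replicate block and 42 to 396 with a library left out. In OE against GFP, 17 members were called higher, against 10 in the fit of all 12 libraries, 20 with library totals, 22 on either TPM scale and 14 to 18 with a library left out. The number lower was 7, against 5, 6, 5 and 7 to 8 under the same alternatives. The difference of effects was called higher for 7 to 15 members and lower for 3 to 4 with a library left out. Library totals turned Insig2 in OE to 0.13. Limma on log2(TPM + 1) turned Insig2 to 0.65, Cyp51 to 0.15 and Nsdhl to 0.25, and log2(TPM + 0.1) gave 0.65, 0.15 and 0.25. The median of all genes moved to 0.27 and 0.30 on these TPM scales and to 0.14 with library totals, and the cause was not tested. In KO, 39 of 435 values of members changed sign under an alternative, none with a call.

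Over all genes tested, replicate numbers did not visibly pair the samples, and not every library correlated best with its own number. The correlations of same-numbered deviations were 0.03, -0.05 and -0.42 in KO and WT and -0.04, 0.04 and -0.07 in OE and GFP. Library 3 was the lowest for 16 of the 19 synthesis enzymes in KO and 17 in WT. Over all genes that was 4150 of 11786 and 4062 of 11797. Whether same-numbered libraries share a source was not tested. With the number as a replicate block, members called were 0 higher and 1 lower in KO, 17 higher and 8 lower in OE, and 13 higher and 4 lower for the difference of effects. The lowest counts of any member in a library were 44 for Abcg5, 65 for Soat2 and 84 for Abcg8, so depth limits these genes most.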
